A study of Mus musculus with 2 samples.

Results

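The genes described here encode the subunits of the proteasome, as measured in RNA recovered with an antibody to HuR from C2C12 cells. A spotted clone was taken as a member when its gene symbol began with Psma, Psmb, Psmc or Psmd followed by a digit, at any signal level. The symbol was the current one for the clone's gene number in the deposited table, or otherwise the symbol of the table itself. The rule found 54 of the 16896 clones on the array. Of these, 51 named 34 subunit genes, 15 of the core particle on 19 clones and 19 of the regulatory particle on 32 clones. The other 3 clones named no single subunit and are described at the end. The choice of members used no measured value.

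The study has 2 samples. One is RNA from an immunoprecipitation with the monoclonal antibody 3A2, which recognises HuR, and the other is RNA from an immunoprecipitation with IgG, the control for RNA that sticks to antibody or beads. Both came from untreated C2C12 cells in proliferation, a mouse myoblast line that fuses into muscle fibres when serum is withdrawn, grown in 20% serum and 1% antibiotics and collected at 80% confluency. The comparison asks which mRNAs were enriched with HuR. Each sample has 3 array runs of radiolabelled cDNA, 1 of them unnumbered and the others numbered 3 and 4. The sources do not say whether a run is a repeat hybridisation or an immunoprecipitation of its own, so each antibody counts as 1 sample and no significance test between them was made.

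The proteasome is the protease that degrades proteins tagged with ubiquitin. Its core particle is a barrel of stacked rings, with Psma (alpha) subunits in the outer rings, which gate the entrance, and Psmb (beta) subunits in the inner rings, some of which cut the substrate. The regulatory particle caps the barrel: Psmc subunits are ATPases that unfold the substrate and feed it in, and Psmd subunits are mostly scaffold, ubiquitin-binding and deubiquitinating parts. In muscle the proteasome takes part in both normal turnover and wasting. HuR (Elavl1) binds U-rich and AU-rich stretches of mRNAs, often in the 3′ untranslated region, and is known for stabilising mRNAs or altering their translation in myoblasts.

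All values are z scores, which give the standing of a clone among the clones of its array section in units of the SD of that section. Scores were set to a median of 0 in each section of each run. A difference is the HuR score minus the IgG score, averaged over the 3 pairs of runs that share a number, and its SD is the spread between run pairs, not between independent immunoprecipitations. A gene's difference is the median of its clones. For a gene with several clones, the SD is taken over the clones' medians in each pair. The mean of these medians can differ from the gene's difference. Psma7, for example, had a difference of -0.18 and pair medians of -0.09, -0.38 and -0.63. The SD of a median over several genes was likewise taken over its values in each pair. A score is relative to the other clones of its run, so it does not show how much RNA was recovered, and scores of different clones were not compared as levels. Fewer cells with a transcript and less of it per cell cannot be told apart.

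With HuR, most subunit mRNAs stood slightly lower than with IgG, and the median shift was smaller than its SD over run pairs. The median difference over the 34 genes was -0.15 ± 0.22 (SD over run pairs), against -0.04 over all 7791 named genes on the array. Of the 34 genes, 25 (73.5%) were within 0.3 units of 0, against 83.0% of all named genes. In the mean of the run pairs 29 of 34 genes (85.3%) were below 0, where 57.2% of all named genes were. Because the subunit differences moved together within a run pair, this count is not a count of independent observations.

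At the threshold of 1 z score unit, 1 of the 54 clones (1.85%) was higher with HuR, against 1.13% of all features, and 0 were lower, against 0.166% of all features. The clone past the threshold was that of Psma6. At 0.6 units it was again the only higher clone, where 3.1% of all features were higher. The clone of Psmb4 and 1 of the 2 clones of Psmd1 were lower by at least 0.6, where 1.28% of all features were. At 1.5 units no member was higher, against 0.473% of all features.

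**Figure D1:**
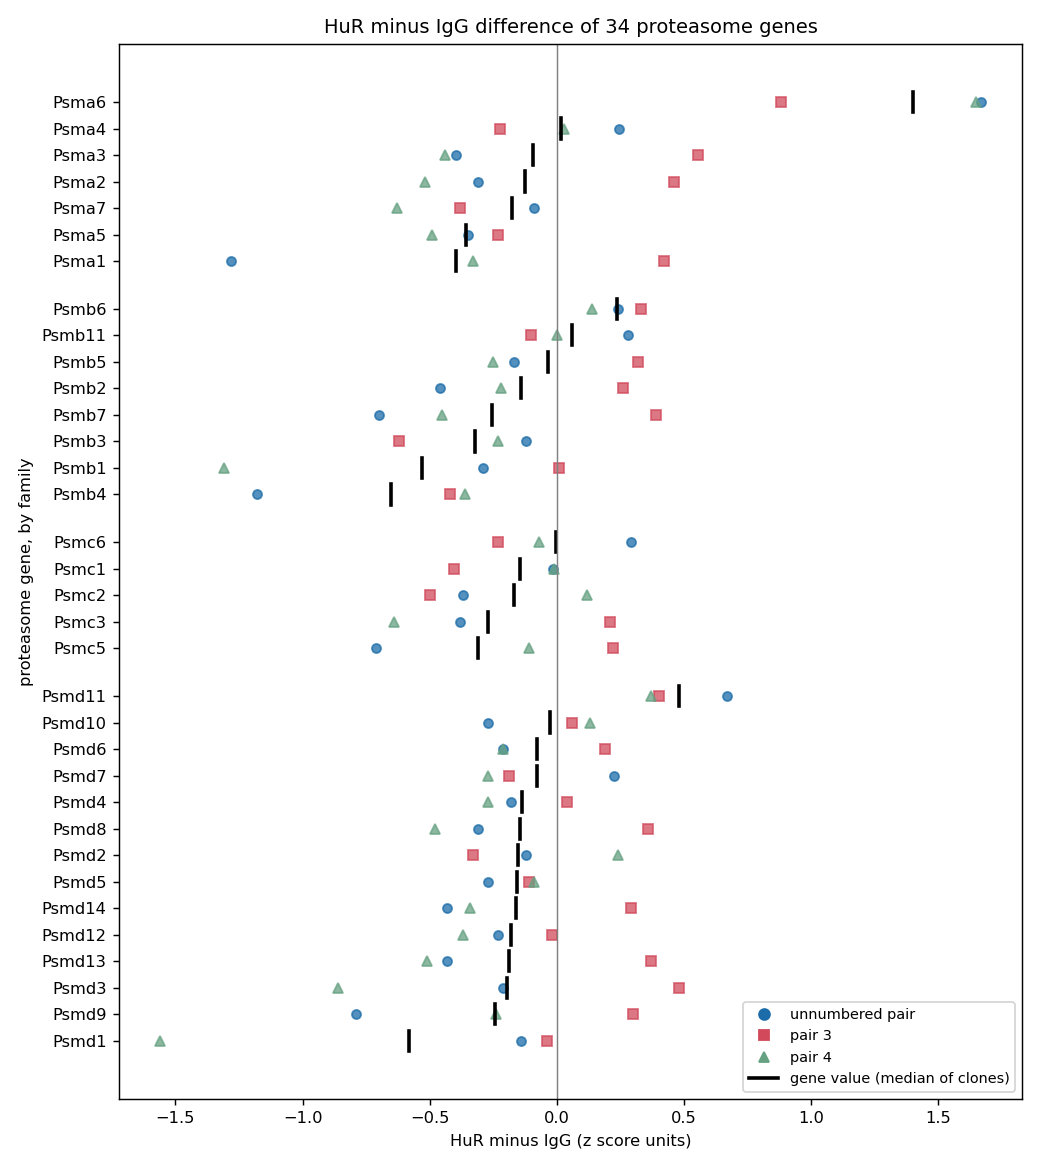
HuR minus IgG difference of each of the 34 subunit genes, in z score units on the horizontal axis, with genes grouped by family down the page. Circles, squares and triangles are pairs unnumbered, 3 and 4, and the black bar is the gene's value. Psma6 stands apart at 1.40, and most other bars lie between -0.6 and 0.3, with the squares of pair 3 often to the right of 0.

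The alpha subunits form the gated outer rings. The array named 7 of the 8 Psma genes of the list, all but Psma8, the testis form. Their median difference was -0.31, 0.42 and -0.44 in pairs unnumbered, 3 and 4, and 5 of 7 were below 0 in the mean. Psma6 (Entrez Gene 26443) and Psma5 (Entrez Gene 26442) differed from 0 by more than 2 SD of their run pairs, in opposite directions.

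The Psma6 clone had scores of 1.57, -0.63 and 1.56 in the HuR runs (unnumbered, 3 and 4), against -0.10, -1.51 and -0.09 in the IgG runs. HuR was higher in every pair, by 1.67, 0.88 and 1.65, which gives a difference of 1.40 ± 0.45. Run 3 was low with both antibodies, so its HuR score lies between the IgG scores and the 2 sets of runs overlap when pairing is ignored.

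That clone came from well D12 of source plate 18, where several nearby wells were high too. The median of the mean differences of its adjoining wells was 1.35, and 1.81% of all features on the array had adjoining wells with such a median of at least 0.5. On the same plate, an Actb clone in well D10 was at 2.27 ± 0.46, and the adjoining clone of Dolpp1 in well C12 was at 1.70 ± 0.30. Of the 5 adjoining wells 2 were near 0, C11 at -0.07 ± 0.56 and E11 at 0.09 ± 0.32. Taken in each pair, the medians of these wells were 1.23, 0.40 and 1.76 in pairs unnumbered, 3 and 4. Psma6 exceeded them by 0.44 and 0.48 in the unnumbered pair and pair 3, and stood at -0.11 from them in pair 4. After this subtraction by pair a mean of 0.27 ± 0.33 was left. Set against the single median of 1.35, Psma6 at 1.40 was almost level. It was the only one of the 51 subunit clones with such raised neighbours, and it has no second clone on another plate. Whether the neighbouring wells contribute to its score was not tested.

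Psma5 went the other way, with scores of -0.11, 0.20 and -0.08 in the HuR runs and 0.24, 0.43 and 0.41 in the IgG runs. Every HuR run was under every IgG run, and the difference was -0.36 ± 0.13. Subtracting the median of the adjoining wells left -0.24 ± 0.21.

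Psma1 had scores of 1.27, 1.95 and 1.85 with HuR and of 2.55, 1.53 and 2.18 with IgG. Its difference of -0.40 ± 0.85 was the lowest of the family in the mean, but its pairs ran from -1.28 (unnumbered) to 0.42 (pair 3) and the runs overlap. Psma4 was close to 0, at 0.02 ± 0.24. Its clone on plate 39 had 1.34, 0.75 and 1.12 with HuR against 0.67, 1.22 and 0.76 with IgG, and its clone on plate 111 had 0.42, 0.51 and 0.35 against 0.60, 0.49 and 0.65. The first clone was thus at 0.19 ± 0.59 and the second at -0.15 ± 0.16, so neither shows a shift beyond its own spread.

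Psma7, with clones on 3 plates, was at -0.18 ± 0.27, and its clones did not move alike. On plate 75 the clone had 0.35, -0.02 and 0.23 with HuR against 0.76, 0.42 and 0.86 with IgG, a difference of -0.49 ± 0.12 with no overlap between runs. That on plate 25 was at -0.18 ± 0.60, from -0.38, -0.84 and -0.84 with HuR and -0.29, -1.22 and -0.02 with IgG. That on plate 160 was at 0.04 ± 0.44, from 1.01, 0.45 and 0.52 with HuR and 0.51, 0.83 and 0.53 with IgG. Only 1 of the 3 clones was thus lower in every pair.

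Psma3 had 2 clones on different plates that did move alike. On plate 29 the clone had -0.55, -0.10 and -0.44 with HuR against -0.12, -0.85 and 0.06 with IgG, and the clone on plate 113 had 0.98, 1.34 and 1.11 against 1.34, 0.98 and 1.49. On both, HuR was lower in the unnumbered pair and pair 4 and higher in pair 3, and the gene's difference was -0.09 ± 0.56. Psma2 showed the same order of pairs, at -0.31, 0.46 and -0.52, with a difference of -0.12 ± 0.52.

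The beta subunits include the cutting sites of the core particle. The array named 8 of the 11 Psmb genes of the list, each on 1 clone. Psmb8, Psmb9 and Psmb10, the interferon-inducible catalytic subunits of the immunoproteasome, had no named clone. The median of the family was -0.23, 0.14 and -0.24 in pairs unnumbered, 3 and 4, with 6 of 8 genes below 0 in the mean.

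Psmb4, a non-catalytic beta subunit (Entrez Gene 19172), had the lowest difference of all 34 genes. Its scores were -0.38, -0.15 and 0.13 in the HuR runs and 0.80, 0.27 and 0.49 in the IgG runs. Every HuR run was under every IgG run, with a difference of -0.65 ± 0.46 and pairs of -1.18, -0.42 and -0.36. Its adjoining wells were near 0, at 0.02, and the clone was below them in every pair, by a mean difference of -0.65 ± 0.68. The unnumbered pair carries much of this value.

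Psmb1, also non-catalytic, had 0.69, 0.28 and -0.15 with HuR against 0.98, 0.27 and 1.16 with IgG. Its difference of -0.53 ± 0.69 rests on pair 4, at -1.31, where its adjoining wells stood at -1.02. The other pairs were at -0.29 and 0.01.

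Psmb6, the catalytic subunit with caspase-like activity (Entrez Gene 19175), was the highest of the family. Its scores were 0.57, 0.18 and 0.56 with HuR and 0.33, -0.15 and 0.42 with IgG, so HuR was higher in every pair by a small amount, 0.24 ± 0.10. The runs overlap when pairing is ignored, and after the adjoining wells were subtracted 0.09 ± 0.12 was left. The other catalytic subunits of the constitutive core were Psmb5, with chymotrypsin-like activity, at -0.03 ± 0.31, and Psmb7, with trypsin-like activity, at -0.25 ± 0.57. These 3 were above 0 in pair 3, and of the 3 only Psmb6 was above 0 in the other pairs.

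Psmb11, the catalytic subunit of the thymus cortex, had 0.74, 0.69 and 0.89 with HuR against 0.46, 0.79 and 0.89 with IgG. Its difference was 0.06 ± 0.20, and unlike the catalytic Psmb5, Psmb6 and Psmb7 it was below 0 in pair 3, at -0.10. The remaining beta subunits, Psmb2 and Psmb3, were at -0.14 ± 0.37 and -0.32 ± 0.26, and Psmb3 was below 0 in every pair.

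The Psmc subunits form the ring of ATPases in the base of the regulatory particle. The array named 5 of the 6, all but Psmc4. All 5 were below 0 in the mean, from -0.31 for Psmc5 to just under 0 for Psmc6. None was further from 0 than 1 SD of its run pairs, and most named genes were not either (1742 of 7791 were). The family's median was -0.37, -0.23 and -0.07 in pairs unnumbered, 3 and 4, the only one of the 4 families below 0 in pair 3.

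Psmc5 had 3 clones. In adjoining wells of plate 14 its clones had -0.70, 0.23 and 0.17 with HuR against 0.51, 0.01 and 0.28 with IgG, and -0.33, 0.19 and 0.04 against 0.38, 0.08 and 0.37. Both were lower mainly in the unnumbered pair, and their differences were -0.37 ± 0.75 and -0.31 ± 0.41. The clone on plate 41, with 0.63, 0.65 and 0.78 against 0.48, 0.15 and 0.89, was at 0.18 ± 0.31. The plate 14 clones come from adjoining wells of 1 source plate, so they were not read as clones on separate plates.

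Psmc3 was at -0.27 ± 0.44. Its clone on plate 1 had 0.85, 1.02 and 0.58 with HuR against 1.03, 0.54 and 1.25 with IgG, and its clone on plate 26 had -1.11, -0.62 and -1.42 against -0.53, -0.56 and -0.81. The second clone was lower in every pair and the first was higher in pair 3, so their differences of -0.12 ± 0.58 and -0.42 ± 0.31 share a sign but not a pattern.

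Psmc1 and Psmc2 were each spotted in adjoining wells of a single plate. For Psmc1 the median scores were 0.88, 0.62 and 0.80 with HuR and 0.90, 1.03 and 0.82 with IgG, a difference of -0.14 ± 0.23 that came from pair 3, where it was -0.40. Psmc2, on 3 clones, was at -0.17 ± 0.33, with clones from -0.28 to -0.13. Psmc6 had 0.33, -0.01 and -0.01 with HuR against 0.04, 0.22 and 0.06 with IgG, and its mean difference was -0.00 ± 0.27.

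The Psmd subunits complete the regulatory particle, and the array named all 14 genes of the list. Of these, 13 were below 0 in the mean. By role, the 8 lid genes had medians of -0.22, 0.33 and -0.35 in pairs unnumbered, 3 and 4. The 3 genes of the base that are no ATPases, Psmd1, Psmd2 and Psmd4, had -0.14, -0.04 and -0.27. The 3 assembly chaperones that carry Psmd names but leave the finished particle, Psmd5, Psmd9 and Psmd10, had -0.27, 0.06 and -0.09.

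Psmd11, a lid scaffold subunit (Entrez Gene 69077), was the exception among the regulatory genes. Its scores were 0.84, 0.39 and 0.42 in the HuR runs and 0.17, -0.01 and 0.05 in the IgG runs. Every HuR run was above every IgG run, and the difference was 0.48 ± 0.17. Its adjoining wells on plate 112 were at -0.10, and the clone exceeded them in every pair, by 0.61 ± 0.26 in the mean. No other clone of Psmd11 was on the array.

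Among the other lid genes, Psmd12 was the one with clones on 3 plates that all lay below 0. The clone on plate 2 had 0.83, 0.76 and 0.54 with HuR against 1.08, 0.55 and 1.04 with IgG. The clone on plate 100 had -0.37, -0.65 and -0.20 against -0.14, -0.49 and 0.17, and the clone on plate 174 had -0.87, -0.56 and -1.06 against -0.68, -0.54 and -0.81. The differences were -0.18 ± 0.36, -0.25 ± 0.11 and -0.15 ± 0.12, and clones on both later plates were lower in every pair. The shift was small, at -0.18 ± 0.18 for the gene.

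Psmd7, the partner of Psmd14 in the lid, was at -0.08 ± 0.27. Its clones on plates 45 and 114 lay on either side of 0. The first had 0.72, 0.94 and 0.40 with HuR against 0.29, 0.83 and 0.63 with IgG, and the second had 0.54, 0.25 and 0.26 against 0.52, 0.74 and 0.57. Psmd14, the deubiquitinase that removes ubiquitin from substrates, was at -0.16 ± 0.39. The other lid genes ran from -0.20 ± 0.67 for Psmd3 to -0.08 ± 0.23 for Psmd6, with Psmd13 at -0.19 ± 0.49 and Psmd8 at -0.14 ± 0.44 between them.

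In the base, Psmd1, a large scaffold on which a ubiquitin receptor docks (Entrez Gene 70247), was at -0.58 ± 0.85. Its clone on plate 16 had -0.60, 0.09 and -2.36 with HuR against 0.16, 0.39 and -0.44 with IgG, a difference of -0.99 ± 0.83. Its clone on plate 31 had -0.38, -0.98 and -2.41 against -0.86, -1.20 and -1.21, a difference of -0.17 ± 0.90. Both clones were far lower in HuR run 4 than in IgG run 4, which gave pair 4 differences of -1.92 and -1.20, and in the other pairs they did not share a sign. Both are dim, outside the brighter 50% of features.

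Psmd2, the other large scaffold of the base, was at -0.15 ± 0.29 on 3 plates. On plate 11 the clone had 0.32, 0.05 and 0.24 with HuR against 0.44, 0.38 and 0.25 with IgG, and the clone on plate 130 had 0.70, 0.72 and 1.02 against 1.20, 1.14 and 0.78. The dim clone on plate 32, with -1.41, -0.61 and -0.41 against -2.09, -0.52 and -0.89, went the other way at 0.36 ± 0.40. Psmd4, a ubiquitin receptor, was at -0.14 ± 0.16.

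Of the assembly chaperones, Psmd9 had 2.47, 2.45 and 2.50 with HuR against 3.26, 2.15 and 2.74 with IgG, a difference of -0.24 ± 0.55 whose pairs do not share a sign. Psmd10, known as gankyrin, was at -0.03 ± 0.21. Its clone on plate 108 had -0.49, -0.46 and -0.35 with HuR against -0.38, -0.08 and -0.29 with IgG, and its clone on plate 141 had 1.47, 1.76 and 1.91 against 1.90, 1.26 and 1.59. Psmd5 was the steadiest of the 3, with -0.37, -0.31 and -0.33 against -0.10, -0.20 and -0.24, so that every HuR run was under every IgG run at a difference of only -0.16 ± 0.10. Its adjoining wells were at -0.11, and subtracting their median by pair left -0.02 ± 0.13.

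Across all 34 genes, every HuR run was under every IgG run for 4 (11.8%), Psma5, Psma7, Psmb4 and Psmd5, against 2.94% of all named genes. Psma7 is counted there by the medians of its 3 clones, of which the runs overlap on the clones of plates 25 and 160. Every HuR run was over every IgG run for 1 (2.94%), Psmd11, against 4.04% of all named genes. Differences larger than 2 SD of the run pairs were found for 4 genes (11.8%), Psma5, Psma6, Psmb6 and Psmd11, against 6.76% of all named genes. These sets share only Psma5 and Psmd11.

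Set against each other, core and regulatory genes did not separate. The median over the 15 core genes was -0.14 ± 0.33 and that over the 19 regulatory genes was -0.16 ± 0.17, so core minus regulatory was 0.02 ± 0.16 (SD over run pairs in each case). The core genes had medians of -0.29, 0.26 and -0.33 in pairs unnumbered, 3 and 4, and the regulatory genes had -0.23, 0.06 and -0.24. Both thus changed side in pair 3. Without pair 3, core minus regulatory was -0.19, with the core at -0.42 and the regulatory genes at -0.23. In the brightest 25% of features it was 0.18, with the core at 0.04 and the regulatory genes at -0.15.

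In scores rather than differences, the median core gene was at 0.41, 0.19 and 0.30 in the HuR runs and at 0.51, 0.27 and 0.52 in the IgG runs. The median regulatory gene was at -0.13, 0.20 and -0.08 in the HuR runs and at 0.17, 0.05 and 0.22 in the IgG runs. The HuR medians were below the IgG medians of the same number in each pair, except for regulatory genes in pair 3. For the core in pair 3 this side is opposite to that of the median difference of 0.26, since the median of the differences is not the difference of the medians.

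**Figure D2:**
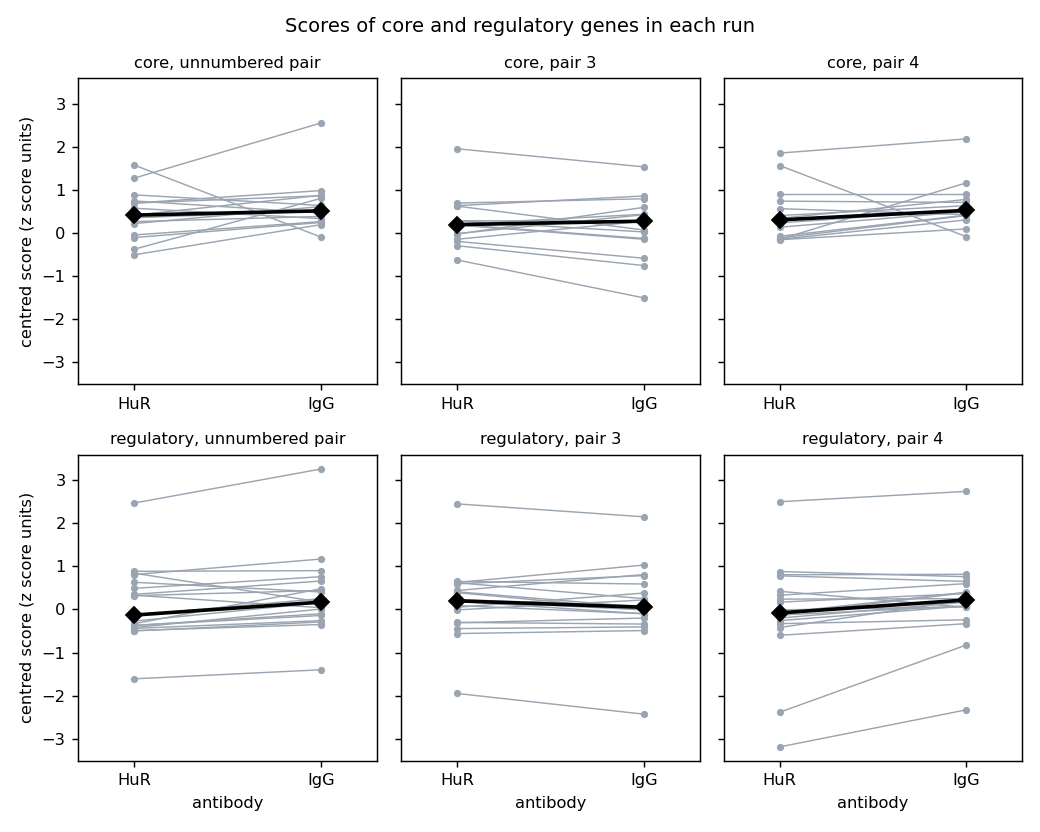
Centred score of each gene (grey points joined by a line, median of its clones) in the HuR run and the IgG run of each pair, in z score units, for core genes (top row) and regulatory genes (bottom row). Black diamonds are the medians over genes, which for the core are 0.41 with HuR and 0.51 with IgG in the unnumbered pair. Psma6 is the core gene whose line drops steeply from HuR to IgG.

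The run pairs disagreed on direction more than the families did. Below 0 were 27, 14 and 26 of 34 genes in pairs unnumbered, 3 and 4, against 58.5%, 44.9% and 53.6% of all named genes. In pair 3, 20 of 34 (58.8%) were above 0, against 53.3% of all named genes. A total of 16 genes (47.1%) were below 0 in the unnumbered pair and pair 4 and above 0 in pair 3, where 22.8% of all named genes were. These were 7 of the core and 9 of the regulatory genes, among them Psma1, Psma2, Psma3, Psmb1, Psmb2, Psmb5, Psmb7, Psmd13 and Psmd14. Below 0 in every pair were 8 genes (23.5%, against 13.1% of all named genes). They were Psma5, Psma7, Psmb3, Psmb4, Psmc1, Psmd1, Psmd5 and Psmd12. For Psma7, Psmc1, Psmd1 and Psmd12 this rests on medians over clones. Each had a clone above 0 in some pair and another below 0 in every pair. Pair 3 gave 0.38 for Psma7 on plate 25, 0.22 for Psmd1 on plate 31 and 0.21 for Psmd12 on plate 2. For Psmc1, the clone in well B6 of plate 134 had a pair 4 difference of 0.09. Above 0 in every pair were 3 (8.82%, against 11.7%), Psma6, Psmb6 and Psmd11.

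By signal strength, the shares of genes with this pattern ran the other way among the subunits than over the array, a difference that was not tested. Of the 34 genes, 25 lay in the brighter 50% of named genes by mean score. Among all 3897 genes there, 27.7% were above 0 in pair 3 alone, against 17.9% of the dimmer genes. The subunit genes had this pattern in 10 of 25 cases (40.0%) among the brighter and 6 of 9 (66.7%) among the dimmer genes. In the mean of the pairs, 20 of the 25 brighter subunit genes (80.0%) and 9 of the 9 dimmer ones were below 0, where 57.9% of all brighter and 56.5% of all dimmer genes were.

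Adjoining wells moved with the pair differences as well, with a higher r for core than for regulatory clones. Across the 51 subunit clones, the difference in pair 3 correlated with the median of the adjoining wells at r = 0.82, against 0.73 over all features, and the clone and its adjoining wells had the same sign for 42 of 51 (82.4%, against 76.6% of all features). In the unnumbered pair 39 of 51 shared a sign (76.5%, against 73.6%) and in pair 4 33 of 51 did (64.7%, against 70.1%). In the unnumbered pair r was 0.51 (0.37 without the Psma6 clone), against 0.62 over all features, and in pair 4 it was 0.56 (0.32 without it), against 0.57. For the 32 regulatory clones r was 0.19, 0.73 and 0.08 in pairs unnumbered, 3 and 4. For the core clones it was 0.80, 0.94 and 0.93, or 0.66, 0.95 and 0.81 without Psma6. The regulatory values keep the 2 dim Psmd1 clones, each far from its adjoining wells in 1 of these pairs. On plate 31 the clone was at 0.48 and its wells at -1.705 in the unnumbered pair. On plate 16 the clone was at -1.92 and its wells at 0.58 in pair 4. How much of the lower regulatory r comes from Psmd1 was not tested. These correlations describe clones that share runs and plates and carry no p-value. Psma1 shows it closely: its pairs were -1.28, 0.42 and -0.33, and it differed from the median of its adjoining wells by only -0.12, 0.09 and -0.03.

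Of the 51 clones, 21 (41.2%) were below 0 in the unnumbered pair and pair 4 and above 0 in pair 3, against 19.7% of all features. For 11 of the 21 (52.4%) the median of the adjoining wells had the same 3 signs, against 56.1% of such features on the whole array. After the adjoining wells were subtracted, the core median was -0.06 and the regulatory median -0.07. How far the position of a clone contributes to the pattern was not tested.

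Some clones stood off from their adjoining wells to the same side in every pair. Lower in every pair were 8 of 51 (15.7%, against 12% of all features), namely Psma5, Psmb4, Psmd14 and the clones of Psma7 on plate 75, Psmd1 on plate 16, Psmd7 on plate 45, Psmd10 on plate 141 and Psmd12 on plate 2. Higher in every pair were 2 (3.92%, against 12.5% of all features), Psmd11 and the Psma4 clone on plate 39. The lower clones differ in size, from -0.06 ± 0.04 for Psmd7 to -1.02 ± 1.29 for Psmd1, whose value comes mainly from pair 4.

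**Figure D3:**
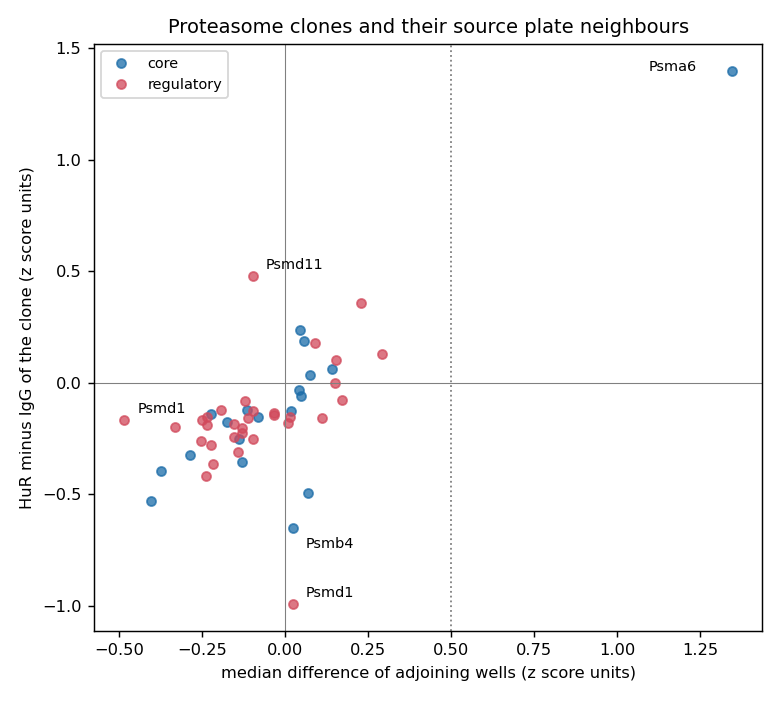
Difference of each of the 51 subunit clones (vertical axis) against the median difference of its adjoining source plate wells (horizontal axis), both HuR minus IgG in z score units, with core clones in blue and regulatory clones in red. The dotted line marks adjoining wells at 0.5. Psma6 is the only clone to its right, and Psmd11, Psmb4 and the Psmd1 clone of plate 16 lie far above or below adjoining wells that are near 0.

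Clones of a gene on several plates allow a comparison that the run pairs do not. Of the 34 genes, 22 had 1 clone and 12 had several, 10 of them on several plates. The clones shared a sign in 6 of the 12 genes, and in 4 of the 10 with clones on several plates. Those 4 were Psma3, Psmc3, Psmd1 and Psmd12, all with every clone below 0. For Psma4, Psma7, Psmc5, Psmd2, Psmd7 and Psmd10 the clones lay on both sides of 0, so the sign of the gene depends on which clone is read. The share of sign agreement over all genes of the array with several clones is not given here, so these counts have no background. Psma6, Psmb4, Psmb6 and Psmd11, which gave the highest and lowest values of their families, each had 1 clone.

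**Figure D4:**
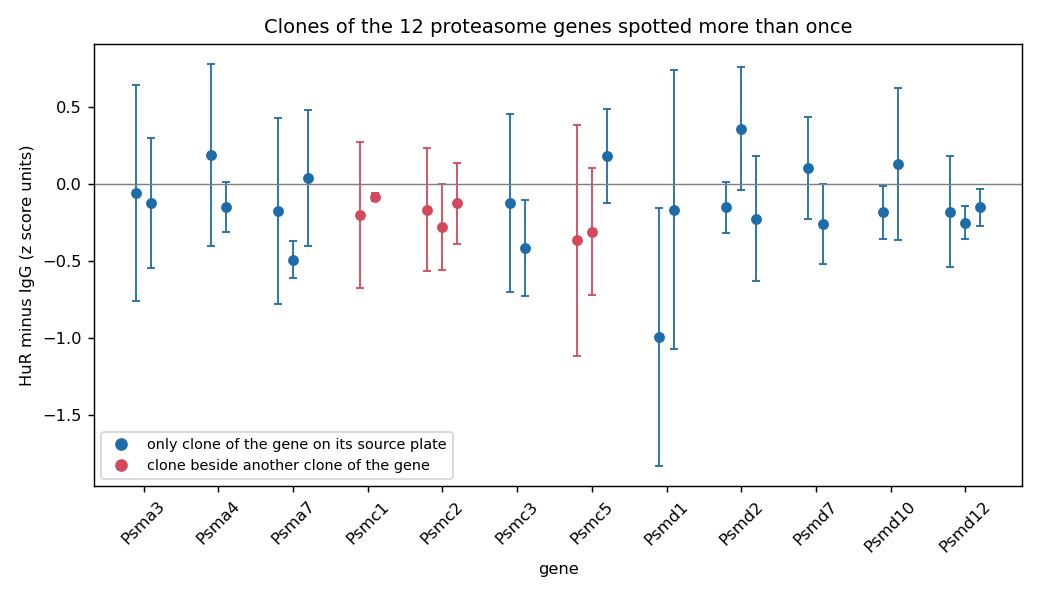
HuR minus IgG difference of each clone of the 12 subunit genes spotted more than once, in z score units, with bars of 1 SD over the 3 run pairs. Red clones sit beside another clone of their gene on a plate and blue ones are alone on theirs. Most bars cross 0, and the clones of Psma4, Psma7, Psmc5, Psmd2, Psmd7 and Psmd10 lie on both sides of it.

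The authors' deposited table gives a two-tailed p for each clone, with no stated method and taken here as unadjusted. In the authors' deposited table, 6 of the 51 clones (11.8%) were lower with p under 0.05, against 3.33% of all features, namely Psma5, Psmb4, Psmd5, the Psma4 clone of plate 111, the Psma7 clone of plate 75 and the Psmd7 clone of plate 114. Psmd11 was the 1 clone (1.96%) higher in the authors' deposited table, against 4.15% of all features. The z ratio of the authors' deposited table was 1.61 for Psmd11, -2.17 for Psmb4 and -1.22 for Psma5. It was 4.67 for Psma6, whose p in the authors' deposited table was 0.11.

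The genes around the proteasome had differences within the range of the subunits' own. Among the ubiquitin genes, which encode the tag itself, 4 of 4 were below 0 in the mean, and their medians were -0.39, 0.21 and -0.43 in pairs unnumbered, 3 and 4. The lowest was Ubb at -0.38 ± 0.77. All 4 were above 0 in pair 3 and below 0 in pair 4, as 16 of the 34 subunits were. Because these genes repeat 1 ubiquitin coding unit, their spots may bind each other's cDNA.

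Assembly factors of the core had a median of 0.11, with 3 of 4 measured genes above 0. The highest was Pomp, which guides the assembly of the beta ring, at 0.25 ± 0.28 and above 0 in every pair. The lowest was Psmg2, at -0.15 ± 0.55. The list of activators that open the core without ATP and 1 inhibitor, with 3 of 5 measured, also had a median of 0.11, from -0.04 ± 0.42 for Psme3 to 0.11 for Psme1 and Psme4.

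Receptors and other associated proteins, 7 of 12 measured, had a median of -0.05. They ran from -0.23 ± 0.28 for Ubqln4, a shuttle for ubiquitinated proteins, to 0.15 ± 0.28 for Sem1, a small subunit of the lid outside the Psmd names. The Vcp segregase, which extracts ubiquitinated proteins for the proteasome, had a median of 0.04 over 4 of 8 genes, from -0.14 ± 0.26 for Vcp to 0.14 ± 0.07 for Ufd1. The clones of Ufd1 lay on both sides of 0, at 0.49 ± 0.30 and -0.20 ± 0.18, so its small SD is that of their median. Those of Sem1 (-0.03 and 0.34) and of Vcp (-0.16 to 0.39) did so too. The transcription factors that raise proteasome genes, Nfe2l1 and Nfe2l2, were at -0.10 ± 0.15 and -0.27 ± 0.20. The clones of Nfe2l1 also lay on both sides of 0 (-0.22 to 0.06). Those of Nfe2l2 were at -0.29 ± 0.46 and -0.26 ± 0.27, each with a wider spread than the gene. None of the 24 genes of these lists exceeded 2 SD of its run pairs, where 6.76% of all named genes did. For so few genes this is near the share of the array.

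**Figure D5:**
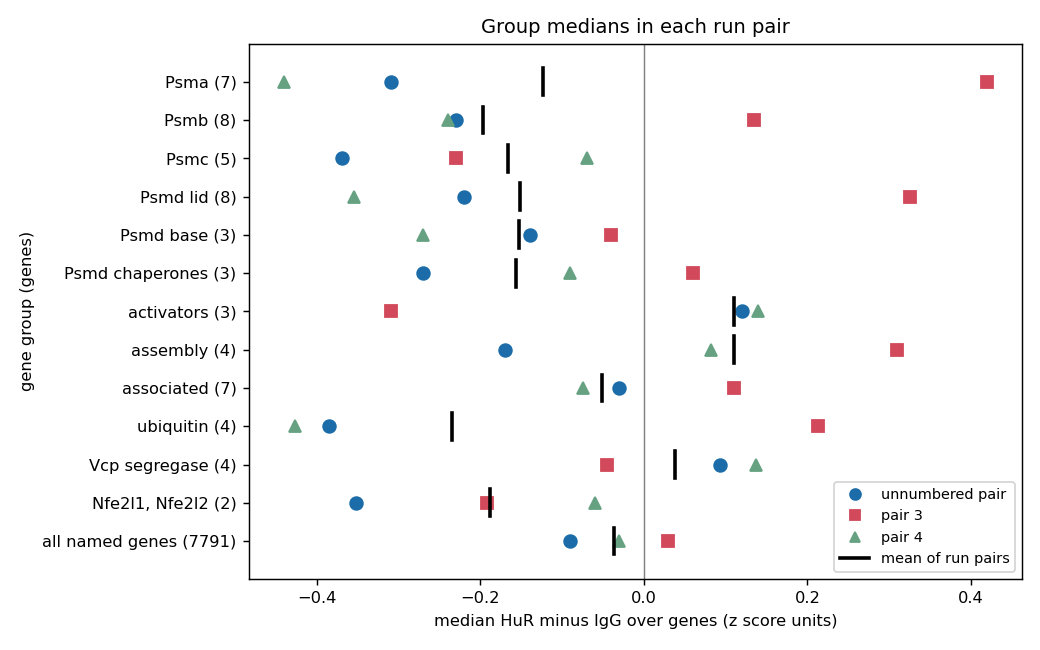
Median HuR minus IgG difference over the genes of each group, in z score units, for the unnumbered pair (circles), pair 3 (squares) and pair 4 (triangles), with the median of the genes' mean differences as a bar. Gene numbers stand in brackets. Psma, Psmb, the Psmd lid and ubiquitin genes lie left of 0 in the unnumbered pair and pair 4 and right of 0 in pair 3, while all named genes stay between -0.09 and 0.03.

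The remaining 3 clones matched the rule without naming a subunit. Both clones of Psmc3ip, a factor of meiotic recombination named for its binding to Psmc3, were near 0, at -0.10 ± 0.18 and 0.06 ± 0.39, and 1 of them carried a second, differing gene number. The other clone, labelled Psmc2 on plate 94, carried the number of a second gene, Tmem63a, and was at 0.04 ± 0.37. They enter no count of subunit genes above.

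As a check of the cell type, 3 of 8 myoblast markers had a named clone, Vim, Fgfr1 and Id1, all in the brighter 50% of features with mean HuR scores from 0.01 to 0.44. Des, Myf5, Myf6, Pax7 and Cdh15 had none. Of liver and epithelial markers, 6 of 6 genes had clones, and 7 of their 12 clones also lay in the brighter 50%, with gene scores from -0.58 to 0.98. Spot brightness thus did not separate markers of the cell line from those it should lack, and a subunit's score does not by itself show expression.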

How the data were processed

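RNA from 1 HuR and 1 IgG immunoprecipitation was measured in 6 array runs, 3 per antibody. The values the authors deposited are z scores (a score per clone and run), per the file headers, with a mean of 0 and an SD of 1 in each of 2 sections of 8448 features. Scanner, background correction and the base of any logarithm are unstated there. A z ratio and a p-value of unstated method, which the authors deposited per the file headers, are quoted only as theirs. All columns of per-sample values were used.

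Clones were named by gene number through RefSeq (GRCm38.p6), or by the table's symbol. Of 16896 features, 7527 took a current symbol, 2676 kept the table's, 520 had differing numbers and 6173 had none. Runs were centred on the section median and paired by number, since the deviations of same-numbered runs correlated over all features (0.42, 0.55 and 0.33) and those of differently numbered runs did so less (-0.48 to 0.08). With 1 sample per antibody no test was made. A difference of 1 z score unit stood in for a fold change, which scores do not allow, and 0.6 and 1.5 were tried. Adjoining wells are the at most 8 around a clone on its source plate, without clones of the same gene. Where they were subtracted, their median was taken in each run pair.

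Scores in every run are given for the highest and lowest 2 genes of each family, genes on several plates and clones past 1 unit, and Psmd5 was added after its values were seen. Of each related list the highest and lowest gene are named, except 1 that is not reported here, and Psmb2, Psmb3 and others of the rule by their difference. The members and lists were chosen with earlier results of these data known. The scripts, in Python 3.11.15 with numpy 2.4.6, pandas 2.3.3 and matplotlib 3.10.9, were tested on simulated data.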

Additional observations from a re-analysis of the deposited data

How the results depend on the processing

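No paired analysis was possible because there is 1 sample per antibody, which leaves no samples to pair. The array runs within the samples were matched by number throughout. Over 19 alternatives (2 of them dropping Psma6 or the chaperones), the core median ranged from -0.42 to 0.04 and was below 0 in 17, and the regulatory median ranged from -0.23 to -0.07 and was below 0 in all 19. Core minus regulatory, 0.02, was 0.18 in the brightest 25% of features, and from -0.19 to 0.10 when a run pair was left out. The count of clones at least 1 unit higher, 1, was 0 in the brightest 25%, without clones with raised neighbours, in the second section, with adjoining wells subtracted and at the threshold of 1.5. The count at least 1 unit lower, 0, was 1 with the local median or the adjoining wells subtracted, 2 at the threshold of 0.6, and 0 to 1 when a run pair was left out. Of 516 gene values under the alternatives, 10 moved by more than the SD over run pairs. Psma6, the 1 gene past 1 unit, kept its sign wherever it had a value, while small values could change sides, such as Psmd5 at 0.01 with the local median subtracted. Among those that moved, Psma6 was 0.27 with adjoining wells subtracted and has no value without clones with raised neighbours, Psmb6 was 0.06 and Psmd11 was 0.69 with the source plate median subtracted, and Psmc5 was 0.18 on its brightest clone. Psma5 moved too, to -0.15 with the local median subtracted and to -0.22 with the source plate median subtracted. Psma7 was -0.455 without run pair 3. The cause was not tested. The corrections for source plate, adjoining wells and signal trend, and the lists without Psma6 or the chaperones, were chosen after seeing the data. The signal over background is not known from scores, and the number of arrays limits the precision.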
